A study of Mus musculus with 12 samples.

Results

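The genes described here carry the NF-kB pathway and its feedback in mouse Kupffer cells, which are macrophages that live in the liver. They were chosen by name, as 40 listed symbols covering the NF-kB subunits, the IkB proteins, the inhibitors that limit the pathway, the adaptors and TRAF proteins below the receptors, and the kinases that activate it. The list was drawn up with earlier results of these data known. A listed gene counted as measured when a probe annotated to it had a detection p under 0.05 on at least 2 of the 12 arrays. By that rule 34 of the 40 were measured, among 10255 genes in all. They had 52 annotated probes, and all 52 passed. Nfkb1, Chuk, Ripk1, Ripk2, Irak4 and Traf3 are not named in the probe annotation used and were not analysed here. Birc3 was detected on 7 of the 12 arrays, and the probe used for every other measured gene was detected on all 12.

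NF-kB is a family of dimeric transcription factors that IkB proteins hold inactive in the cytoplasm. Toll-like receptors such as the LPS receptor signal through the adaptors MyD88 and TRIF, IRAK kinases and TRAF6 to the IKK complex, which phosphorylates IkB proteins and so releases the dimers to the nucleus. Many of the genes that NF-kB then switches on encode its own inhibitors, among them IkB-alpha (Nfkbia) and the ubiquitin-editing enzyme A20 (Tnfaip3), and this feedback ends or dampens the response of a macrophage to bacterial products.

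The 12 Illumina bead arrays fell into 6 groups of 2, and all cells came from livers of 8-week-old male C57BL/6 mice by collagenase digestion and a Percoll step, followed by culture in RPMI medium with serum. M0 cells had no named treatment. LPS, a component of the bacterial outer membrane, was used at 10 ng/ml and IL-4, a type 2 cytokine also called interleukin 4, at 20 ng/ml. The labels call these states M1 and M2. Vehicle cells received DMSO, and the other cells received SR3335, which the labels call a ROR-alpha inverse agonist, or SR1078, which they call a ROR agonist. ROR-alpha is a nuclear receptor. The labels print 10 mM for SR3335 and 5 mM for SR1078, a unit that is in doubt and could not be checked. They give 24 h for all groups but M0, which has no time, so a comparison with M0 may also compare culture times. Whether the 2 arrays of a group hold separate cultures or mice is not stated, and p-values then reflect array-to-array spread that may be technical.

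The arrays formed 2 sets, one with M0, LPS and IL-4 and one with vehicle, SR3335 and SR1078. Background signal was 155.5 to 163.9 in the first set and 94.4 to 105.3 in the second, so levels were compared only within a set. Replicate arrays correlated at 0.9916 to 0.997 across genes. Their difference had a standard deviation over genes of 0.262 to 0.332 log2 in the first set and 0.194 to 0.207 in the second. Values below are log2 signals after background correction and quantile normalization, and a value after ± is a standard error (SE), that of the log2 difference between 2 groups. Each SE rests on 1 variance per gene shared by all 6 groups, which may make it too small in the first set and too large in the second. The small number of arrays limits the precision. A gene was called changed at an adjusted p under 0.05 in limma, with Benjamini-Hochberg adjustment over all 10255 genes.

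Of 12 Kupffer cell markers, 9 were measured and all 9 were detected on every array, while Cd5l was not detected. After LPS 4 of the 9 fell and 3 rose, and after IL-4 2 fell and 2 rose. Their summed signal was 169995 to 178326 in M0, 130421 to 130782 after LPS and 182874 to 191729 after IL-4. In the second set it was 118165 to 121707 with vehicle, 106823 to 110747 with SR3335 and 111399 to 115452 with SR1078. Among 10 hepatocyte markers, 6 were measured, and Alb, Cps1, Fabp1 and Tat were not detected. The 7 measured markers of T and NK cells, of 10, summed to 4434 to 4796 in M0, 3223 to 3240 after LPS and 3472 to 3871 after IL-4. The 9 measured markers of sinusoidal endothelium, of 10, summed to 7044 to 7143, 8579 to 9044 and 10609 to 11398 in the same order. The 5 measured neutrophil markers, of 10, summed to 461 to 466 in M0, 4267 to 5227 after LPS and 348 to 412 after IL-4. Among these 5, S100a8 rose by 4.59 ± 0.15 log2 after LPS and Camp, detected on 1 of the 2 LPS arrays and not in M0, passed higher, while Ltf fell by 0.99 and Elane by 0.55 on the log2 scale, and their median difference was -0.01. Stellate cell and fibroblast markers, 5 of 10 measured, summed to 746 to 778, 1337 to 1459 and 548 to 654 in the same order. Hepatocyte markers summed to 653 to 776, 581 to 734 and 464 to 636, B cell markers, 2 of 8 measured, to 250 to 255, 173 to 185 and 249 to 258, and dendritic cell and monocyte markers, 4 of 10 measured, to 431 to 446, 454 to 539 and 459 to 462. Several of these sums moved with the treatments, and their part in the results below was not tested. In RNA from whole cultures, fewer cells of a type and less RNA per cell cannot be told apart.

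The promoters of 3 genes show the letters that NF-kB reads, taken from RefSeq on the GRCm38.p6 build, for the gene of the main IkB protein and for A20 and its partner Tnip1. Each run is the 250 bases before the transcription start, 5′ to 3′ on the gene's strand. Capitals mark matches to the 10-base kB consensus, searched on both strands.
Nfkbia, chr12:55492648-55492897, minus strand: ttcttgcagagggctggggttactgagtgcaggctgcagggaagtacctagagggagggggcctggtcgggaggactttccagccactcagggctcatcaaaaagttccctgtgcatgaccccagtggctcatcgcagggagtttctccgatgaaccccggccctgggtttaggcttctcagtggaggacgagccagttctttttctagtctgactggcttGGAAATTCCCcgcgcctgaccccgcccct
Tnfaip3, chr10:19015411-19015660, minus strand: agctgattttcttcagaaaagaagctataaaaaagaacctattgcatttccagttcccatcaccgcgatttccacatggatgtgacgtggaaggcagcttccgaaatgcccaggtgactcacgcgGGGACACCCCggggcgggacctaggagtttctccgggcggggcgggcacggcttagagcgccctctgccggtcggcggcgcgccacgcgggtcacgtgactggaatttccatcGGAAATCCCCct
Tnip1, chr11:54962941-54963190, minus strand: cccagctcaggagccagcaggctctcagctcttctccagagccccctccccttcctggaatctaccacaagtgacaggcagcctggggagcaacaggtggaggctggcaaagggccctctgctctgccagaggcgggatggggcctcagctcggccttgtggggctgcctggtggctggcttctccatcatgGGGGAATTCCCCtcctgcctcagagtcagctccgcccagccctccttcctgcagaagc
The match of Nfkbia began at base -29 from the start, those of Tnfaip3 at -125 and -12, and Tnip1 had 3 overlapping matches from -58 on, in a stretch that reads the same on both strands. Tnfaip3 had 2 windows at different starts, and only the 1 shown here held a match. In windows of 300 bases, 250 before and 50 after the start, 8.46% of all 32851 RefSeq windows held a match, as did 19 of the 47 windows of the listed genes. Of the 34 measured genes 30 had at least 1 window, and 12 of these held the motif in at least 1 of them, while 9.55% of all 27025 genes in the table did. These are letter matches in a table, not measured binding, and no test was made of them.

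The first comparison asked how LPS moved these genes. The genes grouped as inhibitors gave the most rises by count, 6 of 8, and 4 of the 5 IkB proteins rose. The 6 were A20, its partners Tnip1 and Tnip2, the RNA-cleaving enzyme Zc3h12a, the inhibitory kinase relative Irak3 and Tank. They rose by 1.26-fold to 2.82-fold. Of the 34 genes, 15 rose and 1 fell, which is 47.1%, while 30.3% of all genes tested passed, 13.5% higher and 16.9% lower. The median difference over the 34 genes was 0.28 log2, against -0.03 over all genes. Among genes with a promoter window, 6 of the 13 that rose (Bcl3, Nfkbia, Nfkbie, Tank, Tnfaip3 and Tnip1) and 6 of the 17 others held the kB consensus.

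**Figure D1:**
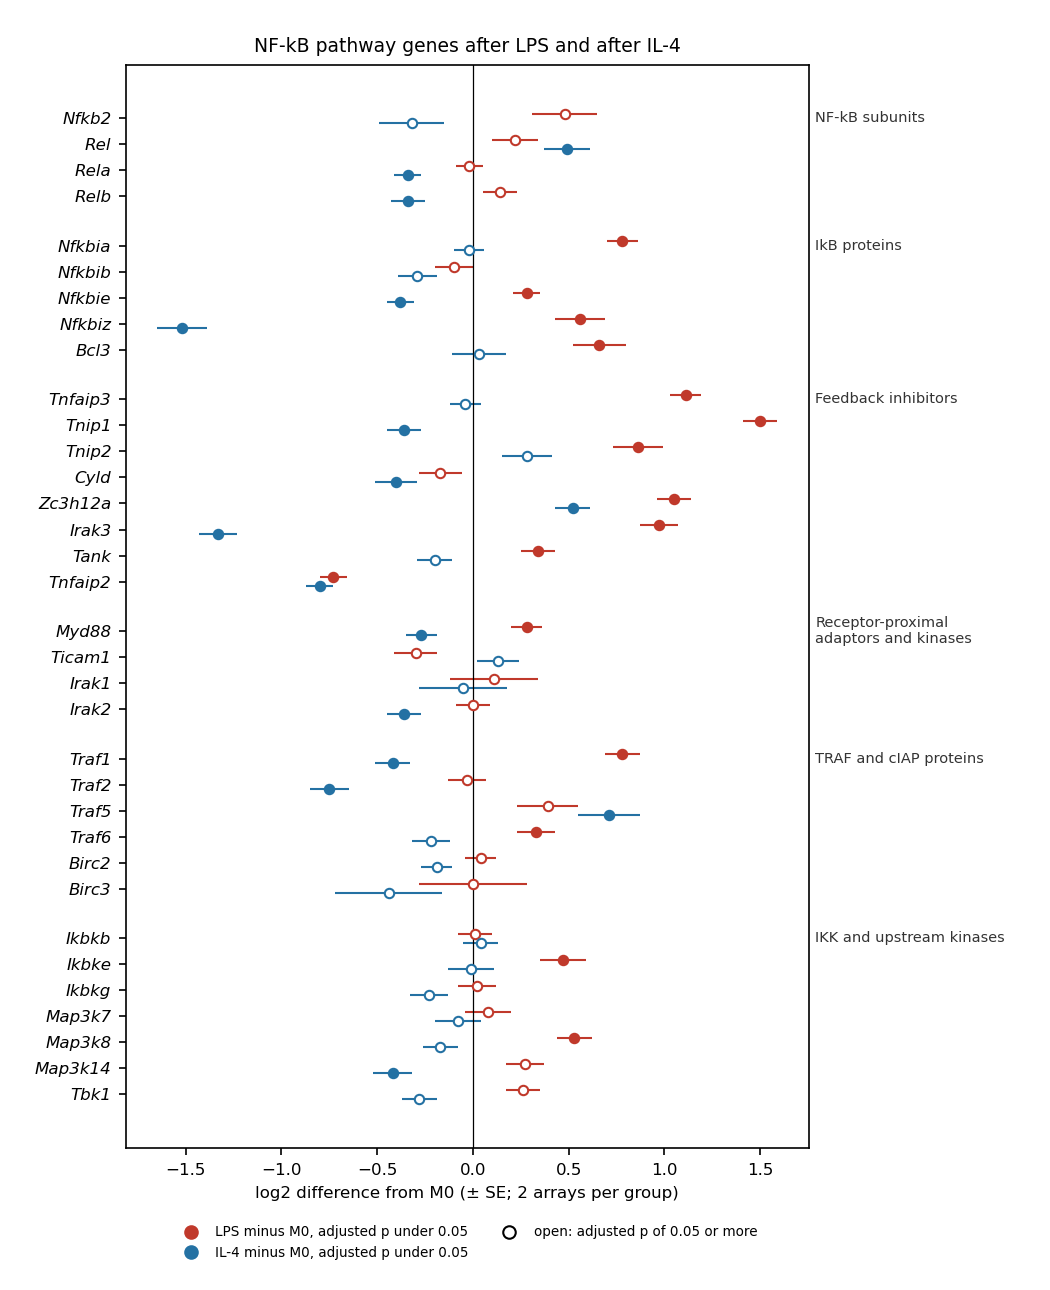
Log2 difference from M0 (horizontal axis, with SE bars, 2 arrays per group) for the 34 measured genes, grouped by role; filled points passed an adjusted p of 0.05. After LPS (red), 6 of the 8 genes grouped as feedback inhibitors passed higher and Tnfaip2 lower, and after IL-4 (blue), Nfkbiz at -1.52 and Irak3 at -1.33 were the lowest.

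Among the inhibitors, Tnip1 (ABIN-1), which binds A20 and ubiquitin chains, changed most. Tnip1 read 11.88 and 11.93 in M0, 13.31 and 13.48 after LPS, and 11.60 and 11.48 after IL-4. Both LPS arrays lay above all others, and it rose 2.82-fold after LPS (1.50 ± 0.09, adjusted p = 6.98e-06). Tnfaip3 (A20) itself read 10.30 and 10.21 in M0, 11.34 and 11.39 after LPS, and 10.19 and 10.25 after IL-4. It rose 2.16-fold after LPS (1.11 ± 0.08, adjusted p = 1.91e-05), with the M0 and IL-4 arrays overlapping. Tnip2 (ABIN-2), another A20 partner, read 9.75 and 9.69, then 10.65 and 10.51 after LPS, and 10.19 and 9.81 after IL-4. Its 3 groups did not overlap, and it rose by 0.86 ± 0.13 after LPS, while the IL-4 difference of 0.28 ± 0.13 did not pass (adjusted p = 0.16).

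Zc3h12a, also called Regnase-1, an RNase that degrades mRNAs of inflammatory cytokines, read 9.00 and 9.05 in M0, 9.98 and 10.16 after LPS, and 9.47 and 9.62 after IL-4. Its 3 groups did not overlap, and LPS raised it by 1.05 ± 0.09 (adjusted p = 5.51e-05). Irak3 (IRAK-M), an IRAK family member of macrophages that restrains Toll-like receptor signalling, read 12.13 and 12.21 in M0, 13.08 and 13.19 after LPS, and 10.73 and 10.95 after IL-4. It rose by 0.97 ± 0.10 after LPS (adjusted p = 0.000165), and its 3 groups were again fully apart. Tank, a scaffold for TRAF proteins and TBK1, read 11.80 and 11.74, then 12.17 and 12.04 after LPS, and 11.61 and 11.53 after IL-4. The LPS arrays were highest, by 0.34 ± 0.09 over M0. Cyld, a deubiquitinase that limits IKK activation, did not pass after LPS (-0.17 ± 0.11).

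Tnfaip2 was listed with the inhibitors by its name, as a TNF-induced gene, but it is known for a role in membrane extensions and not as an inhibitor. It read 13.55 and 13.47 in M0, 12.80 and 12.76 after LPS, and 12.67 and 12.75 after IL-4. It was the 1 gene that fell after LPS, by 0.73 on the log2 scale, SE 0.07 (adjusted p = 0.000126), and M0 stood above both treatments. Its other kept probes read -0.74 ± 0.10 and -0.69 ± 0.08 after LPS.

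**Figure D2:**
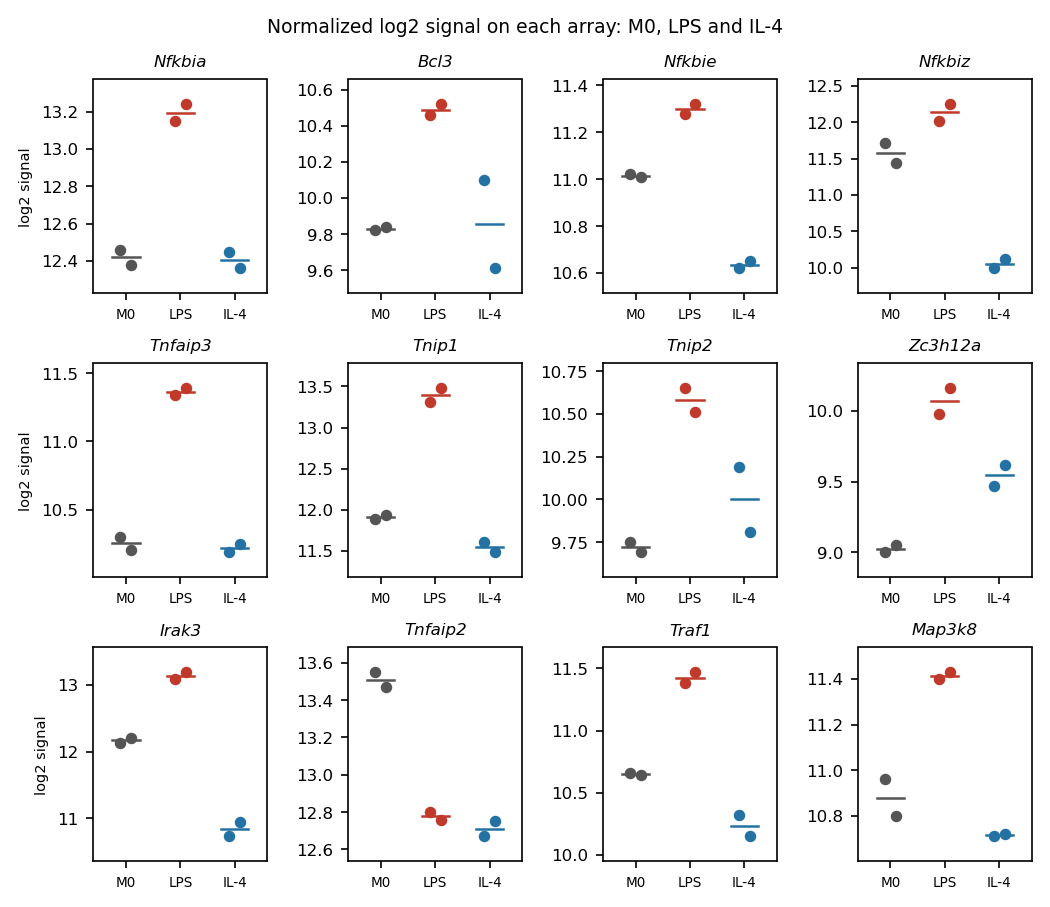
Normalized log2 signal (vertical axis, scaled to each gene) on each of the 2 arrays of M0, LPS and IL-4 for 12 genes; points are arrays and lines are group means. The LPS arrays are highest for each gene shown except Tnfaip2, for which M0 is highest.

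Of the IkB proteins, 4 of 5 rose after LPS, where 13.5% of all genes passed higher. Nfkbia (IkB-alpha), the classical feedback inhibitor, read 12.46 and 12.38 in M0, 13.15 and 13.24 after LPS, and 12.45 and 12.36 after IL-4. Its rise of 0.78 ± 0.08 (1.71-fold, adjusted p = 0.000128) set the LPS arrays apart from the other 4, which overlapped. Bcl3, a nuclear IkB protein that works with p50 and p52 dimers, read 9.82 and 9.84 in M0, 10.46 and 10.52 after LPS, and 10.10 and 9.61 after IL-4. It rose by 0.66 ± 0.14 (adjusted p = 0.00653), while its 2 IL-4 arrays lay on either side of M0. Nfkbie (IkB-epsilon) read 11.02 and 11.01, then 11.28 and 11.32 after LPS, and 10.62 and 10.65 after IL-4. The 3 groups were apart, with a rise of 0.28 ± 0.07 after LPS.

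Nfkbiz encodes IkB-zeta, a nuclear IkB protein needed for a subset of delayed inflammatory genes. Nfkbiz read 11.71 and 11.44 in M0, 12.02 and 12.25 after LPS, and 9.99 and 10.12 after IL-4. It rose after LPS by 0.56 ± 0.13 (adjusted p = 0.0101), with LPS arrays above M0 arrays and IL-4 arrays far below both. Without M0 replicate 2 the rise was 0.43 (adjusted p = 0.0723), and without LPS replicate 2 it was 0.45 (adjusted p = 0.0672). Nfkbib (IkB-beta) read 8.48 and 8.50 in M0, 8.37 and 8.42 after LPS, and 8.17 and 8.24 after IL-4, and did not pass in either comparison with M0.

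The 4 measured subunits gave 0 calls after LPS by limma, with 1 at an unadjusted p under 0.05. Nfkb2, the precursor of p52 in the non-canonical branch, read 8.51 and 8.42 in M0, 8.82 and 9.07 after LPS, and 7.95 and 8.34 after IL-4. Its LPS arrays were the highest, by 0.48 ± 0.17 (adjusted p = 0.0615), and with the settings used here passed only against IL-4. Against M0, Nfkb2 passed higher with no background correction, an offset of 50 or the authors' processed values. It also did with a stricter detection filter, a variance trend or the replicate number as a block. The LPS differences of the other subunits were 0.22 ± 0.12 for Rel (c-Rel), -0.02 ± 0.07 for Rela (p65) and 0.14 ± 0.09 for Relb.

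Of the adaptors and kinases next to the receptors, 1 of 4 rose after LPS. Myd88, the shared adaptor of most Toll-like receptors, read 14.00 and 14.01 in M0, 14.21 and 14.37 after LPS, and 13.75 and 13.71 after IL-4. The groups did not overlap, and the rise was 0.28 ± 0.08 (adjusted p = 0.0241). Ticam1 (TRIF), which carries the other branch from the LPS receptor, read -0.30 ± 0.11 from M0 (adjusted p = 0.0839), and its dimmer probe passed lower. Irak1 and Irak2, kinases recruited by MyD88, did not pass, with adjusted p of 0.749 and 0.975.

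Among the TRAF and cIAP proteins, which link receptors to ubiquitin signalling, 2 of 6 rose after LPS. Traf1, an adaptor that is itself an NF-kB target, read 10.66 and 10.64 in M0, 11.38 and 11.47 after LPS, and 10.32 and 10.15 after IL-4. Its rise was 0.78 ± 0.09 (adjusted p = 0.000346), with the 3 groups apart. Traf6, the ubiquitin ligase below MyD88, read 10.71 and 10.58, then 10.98 and 10.97 after LPS, and 10.31 and 10.55 after IL-4, a rise of 0.33 ± 0.10. Traf2, Traf5, Birc2 and Birc3 did not pass, with differences from -0.03 to 0.39.

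In the kinase group 2 of 7 rose, or 28.6%. The share was 25.0% for the adaptors and kinases next to the receptors and 33.3% for the TRAF and cIAP proteins. Of all genes 30.3% passed after LPS, 13.5% of them higher and 16.9% lower as shares of all genes. Map3k8 (TPL2), a kinase held by the p105 precursor that drives ERK signalling, read 10.96 and 10.80 in M0, 11.40 and 11.43 after LPS, and 10.71 and 10.72 after IL-4. It rose by 0.53 ± 0.09 (adjusted p = 0.00257), and the LPS arrays were the highest. Ikbke, an IKK-related kinase of the interferon response, rose by 0.47 ± 0.12 (adjusted p = 0.0195). Its relative Tbk1 read 13.09 and 12.95 in M0, 13.22 and 13.33 after LPS, and 12.69 and 12.78 after IL-4, and its difference of 0.26 ± 0.09 did not pass (adjusted p = 0.057). Map3k14 (NIK), the kinase of the non-canonical branch, read 9.36 and 9.47, then 9.84 and 9.54, and 8.99 and 8.99 after IL-4. It stood 0.27 ± 0.10 above M0 after LPS and did not pass, though both Map3k14 and Tbk1 did under several alternatives given below. Ikbkb, Ikbkg and Map3k7 (TAK1) differed by 0.01 to 0.08.

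For 11 genes several probes were kept, and some disagreed. A second probe of Ikbkg, the NEMO subunit of IKK, rose by 1.36 ± 0.10 after LPS (adjusted p = 3.33e-05 over all kept probes) where the brighter probe used above read 0.02 ± 0.10. Both were detected on all 12 arrays, so the statement that Ikbkg did not pass holds for 1 probe only. Its other kept probe read 0.58 ± 0.30. The other probes of Birc2 rose by 0.33 ± 0.09 and 0.51 ± 0.16 where the one used read 0.04 ± 0.08. The second probe of Tnip2, detected on 10 of 12 arrays, read -0.06 ± 0.26, against the rise of 0.86 above. The other probes of Tnip1 read 1.74 ± 0.16, 1.93 ± 0.10 and 0.54 ± 0.15, the last undetected in M0 and after LPS, and an Nfkbie probe read 1.03 ± 0.31. The second probe of Ticam1, detected on 10 of 12 arrays and on neither LPS array, read -0.69 ± 0.22 (adjusted p = 0.0446), against -0.30 for the one used.

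Without M0 replicate 2, 10 of the 16 calls after LPS were left. Bcl3, Irak3, Map3k8, Nfkbia, Tnfaip2, Tnfaip3, Tnip1, Tnip2, Traf1 and Zc3h12a passed in every alternative processing and with any array left out, apart from the single probe of Tnip2 above.

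The second comparison asked the same of IL-4, with the same 2 M0 arrays as reference. Here 13 genes fell and 3 rose, led by falls of Nfkbiz and Irak3, and the median over the 34 genes was -0.25 log2 against -0.03 over all genes. Of all genes tested 19.6% passed, 11.1% lower and 8.46% higher.

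Nfkbiz fell 2.87-fold after IL-4 (-1.52 ± 0.13, adjusted p = 0.000158), and Irak3 fell 2.52-fold (-1.33 ± 0.10, adjusted p = 9.58e-05). Tnfaip2 fell by 0.80 on the log2 scale, SE 0.07 (adjusted p = 0.0002). In the values given above, both IL-4 arrays of all 3 genes lay below both M0 arrays. The M0 and IL-4 arrays of Tnfaip3 and Nfkbia overlapped, with differences of -0.04 ± 0.08 and -0.02 ± 0.08 (95% interval -0.21 to 0.14 and -0.19 to 0.15).

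Traf2, an adaptor of TNF receptor complexes, read 7.04 and 7.15 in M0, 6.98 and 7.15 after LPS, and 6.29 and 6.40 after IL-4. It fell by 0.75 on the log2 scale, SE 0.10 (adjusted p = 0.00148), with IL-4 arrays below all others. Traf5, an adaptor of lymphocyte and CD40 receptors, read 7.08 and 7.06 in M0, 7.63 and 7.29 after LPS, and 7.98 and 7.58 after IL-4. It rose by 0.71 ± 0.16 (adjusted p = 0.0169), while its LPS and IL-4 arrays overlapped. Zc3h12a rose by 0.52 ± 0.09 (adjusted p = 0.00523) and Rel by 0.49 ± 0.12 (adjusted p = 0.0198).

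The other 9 falls after IL-4 were smaller, from -0.27 to -0.42: the subunits Rela and Relb, Nfkbie, Tnip1, Cyld, Myd88, Irak2, Traf1 and Map3k14. By role, 2 of 4 subunits, 2 of 5 IkB proteins, 4 of 8 genes grouped as inhibitors, 2 of 4 adaptors and receptor-proximal kinases, 2 of 6 TRAF and cIAP proteins and 1 of 7 kinases fell. Of all genes 11.1% passed lower, and the 14.3% of the kinases is near that share. Bcl3, Tnip2, Tank, Ticam1, Irak1, Traf6, Birc2, Birc3 and 6 of the 7 kinases did not pass, and neither did Nfkb2 or Nfkbib.

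Like the count over all genes, given below, this count moved between alternatives. It was 4 of 34 with the first set normalized and fitted on its own, 3 with only the M0 and IL-4 arrays, 8 or 6 when replicate 1 or 2 of M0 was left out, and 10 when replicate 1 of IL-4 was. Irak3, Tnfaip2 and, wherever its probe was kept, Nfkbiz passed under every alternative and with any of the 4 arrays left out.

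LPS and IL-4 were then compared directly, without M0 and at 24 h in both groups. Of the 34 genes 22 were higher with LPS and 1 was lower, which is 67.6%, while 36.5% of all genes passed, 18% higher and 18.4% lower. The median over the 34 genes was 0.53 log2, against 0.01 over all genes. Irak3 had the largest difference at 2.30 ± 0.10 (4.92-fold, adjusted p = 9.1e-07), followed by Nfkbiz at 2.08 ± 0.13 (4.24-fold), Tnip1 at 1.86 ± 0.09 (3.62-fold), Traf1 at 1.19 ± 0.09 and Tnfaip3 at 1.15 ± 0.08.

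Of the 4 subunits, 3 were higher with LPS than with IL-4: Nfkb2 by 0.80 ± 0.17, Relb by 0.48 ± 0.09 and Rela by 0.32 ± 0.07. Both kinases of the interferon branch were higher as well, Tbk1 by 0.53 ± 0.09 and Ikbke by 0.48 ± 0.12, and so were Map3k8 and Map3k14, each by 0.70. Ticam1 was the 1 gene lower with LPS (-0.43 ± 0.11, adjusted p = 0.0182). Rel (-0.27 ± 0.12), Traf5 (-0.33 ± 0.16), Tnfaip2 (0.08 ± 0.07), Nfkbib, Cyld, Irak1, Birc2, Birc3, Ikbkb, Ikbkg and Map3k7 did not pass. Other probes did: the second Ikbkg probe was 1.23 ± 0.10 higher with LPS than with IL-4 (adjusted p = 4.09e-05 over all kept probes), and a second Birc2 probe was 0.27 ± 0.09 higher (adjusted p = 0.0395). With only these 4 arrays in the fit, 13 genes passed.

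Genes outside the module were read from 2 lists, drawn up with earlier results of these data known. Of 38 measured genes of other NF-kB signalling, of 50 listed, 8 rose and 5 fell after LPS, 1 rose and 7 fell after IL-4, and 15 were higher and 5 lower with LPS than with IL-4. That is 34.2%, 21.1% and 52.6% of the 38, where 30.3%, 19.6% and 36.5% of all genes passed. Malt1, the protease of the CARD signalling complex, rose by 1.45 ± 0.18 after LPS. Azi2, an adaptor of TBK1, rose by 0.76 ± 0.09, and Nod2, a sensor of bacterial cell walls, by 0.75 ± 0.14. Nlrc3, described as a brake on Toll-like receptor signalling, fell by 1.04 on the log2 scale, SE 0.09, and Ube2n, the enzyme that builds K63-linked ubiquitin chains, by 0.86, SE 0.09. Otud7b, a deubiquitinase of the non-canonical branch, passed lower but was not detected on either LPS array, and read 7.02 in M0. After IL-4 Ripk3, a kinase of necroptosis, rose by 0.39 ± 0.10. Peli1, a ubiquitin ligase of IRAK signalling, fell by 0.59 on the log2 scale, SE 0.07, Nlrc3 by 0.52, SE 0.09, and Pdlim2, which targets p65 for degradation, by 0.51, SE 0.12. Between LPS and IL-4 the largest differences were higher Malt1, Nod2 and Pdlim2 with LPS, by 1.32 ± 0.18, 1.25 ± 0.14 and 1.00 ± 0.12. Lower were Otud7b, the NF-kB repressing factor Nkrf (-0.59 ± 0.15) and Rbck1, a subunit of the linear ubiquitin ligase (-0.57 ± 0.15).

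Of 43 measured genes known as NF-kB targets, of 45 listed, 27 rose and 4 fell after LPS, 9 rose and 11 fell after IL-4, and 26 were higher and 5 lower with LPS than with IL-4. That is 72.1%, 46.5% and 72.1% of the 43, where 30.3%, 19.6% and 36.5% of all genes passed. Because the list was drawn up with earlier results of these data known, these shares are not an independent test. Their median difference was 0.61 log2 after LPS and -0.02 after IL-4. The largest rise after LPS was that of Lcn2, an iron-sequestering protein, by 5.16 ± 0.23 (35.79-fold). Saa3, which encodes an acute phase protein, rose by 3.10 ± 0.08 (8.56-fold). Slc7a2, an arginine transporter, rose after both LPS and IL-4, by 3.77 ± 0.13 and 4.03 ± 0.13. Il1b fell after IL-4 by 0.96 on the log2 scale, SE 0.08, and Clec4e, a receptor for mycobacterial lipid, fell by 1.06, SE 0.09. Cd83, a maturation marker, fell after LPS by 1.72 on the log2 scale, SE 0.08, Tlr2 fell by 0.54, SE 0.11, and the adhesion molecule Vcam1 by 0.37, SE 0.08. After IL-4, Ccl2, a monocyte chemokine, rose by 1.51 ± 0.16 and the heparan sulfate proteoglycan Sdc4 by 1.53 ± 0.14, while Tlr2 fell by 1.58, SE 0.11. Between LPS and IL-4, Lcn2, Saa3 and Clec4e were the most raised with LPS, by 5.26 ± 0.23, 3.72 ± 0.08 and 3.61 ± 0.09. Cd83 (-1.76 ± 0.08), Sdc4 (-0.73 ± 0.14) and the urokinase receptor Plaur (-0.61 ± 0.09) were lowest.

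In the second array set the differences were smaller and fewer. With SR3335, Tnfaip3 and Tnip1 were higher than with vehicle and Traf2 was lower, which is 3 of 34 genes or 8.8%, while 4.63% of all genes passed, 2.09% higher and 2.55% lower. The median over the 34 genes was 0.06, against -0.01 over all genes. With SR1078 the 1 gene that passed was Nfkbiz, which was lower, and 1.4% of all genes passed, 1.05% higher and 0.351% lower. A second probe of Birc2, detected on all 12 arrays, rose with SR1078 by 0.54 ± 0.09 (adjusted p = 0.0315 over all kept probes). The brighter Birc2 probe, the one used, read -0.14 ± 0.08.

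**Figure D3:**
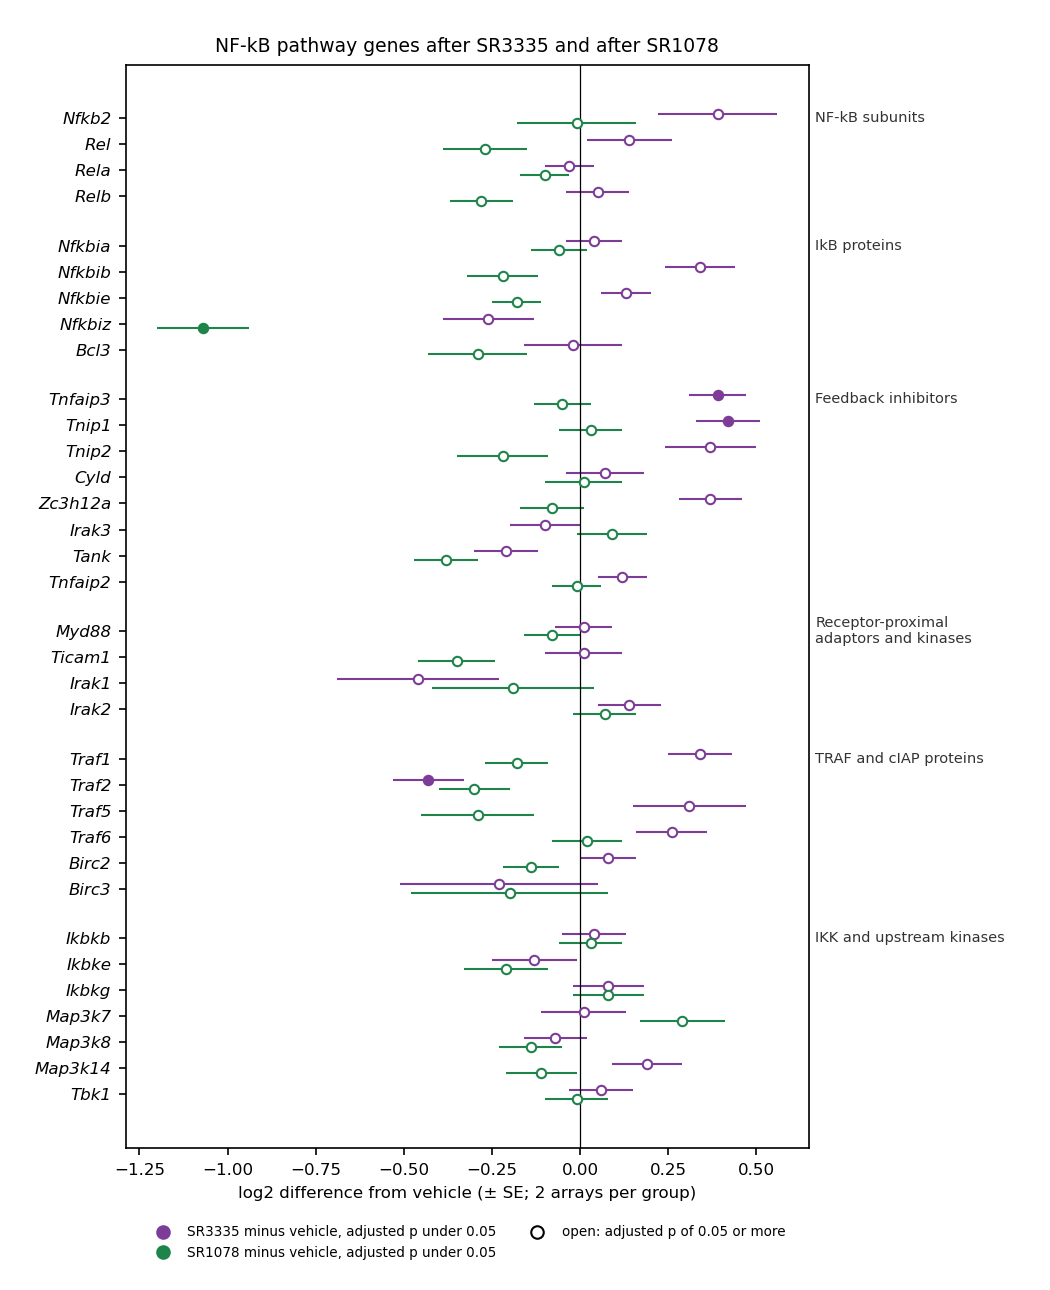
Log2 difference from vehicle (horizontal axis, with SE bars, 2 arrays per group) for the 34 measured genes after SR3335 (purple) and SR1078 (green); filled points passed an adjusted p of 0.05. Tnfaip3, Tnip1 and Traf2 passed with SR3335, and Nfkbiz at -1.07 passed with SR1078.

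Tnfaip3 read 12.11 and 12.16 with vehicle, 12.50 and 12.54 with SR3335, and 12.14 and 12.02 with SR1078. The SR3335 arrays were above the other 4, which overlapped, and the rise was 0.39 ± 0.08 (1.31-fold, adjusted p = 0.0273). Tnip1 read 13.04 and 13.11, then 13.47 and 13.51 with SR3335, and 13.14 and 13.06 with SR1078. It showed the same arrangement, with a rise of 0.42 ± 0.09 (1.34-fold, adjusted p = 0.0304). Of its other probes, 1 rose by 0.44 ± 0.10 and 2 did not pass (0.56 ± 0.16 and 0.15 ± 0.15). Traf2 read 6.88 and 7.00 with vehicle, 6.57 and 6.46 with SR3335, and 6.72 and 6.57 with SR1078. It fell with SR3335 by 0.43 on the log2 scale, SE 0.10 (adjusted p = 0.047), and the arrays of the 2 compounds touched at 6.57.

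Zc3h12a read 9.92 and 9.88 with vehicle, 10.31 and 10.22 with SR3335, and 9.80 and 9.84 with SR1078, and its SR3335 difference of 0.37 ± 0.09 missed the threshold (adjusted p = 0.0564). It passed under several alternatives given below, among them each array set fitted on its own (adjusted p = 0.0483). Traf1 read 12.30 and 12.42, then 12.76 and 12.64, and 12.12 and 12.24 with SR1078. Its SR3335 arrays were the highest, by 0.34 ± 0.09 (adjusted p = 0.0758). Tnip2 read 10.18 and 10.34, then 10.59 and 10.68, and 9.99 and 10.09 with SR1078, with an SR3335 difference of 0.37 ± 0.13 (adjusted p = 0.156). Nfkbib read 8.85 and 8.81, then 9.24 and 9.09, and 8.74 and 8.48 with SR1078, with an SR3335 difference of 0.34 ± 0.10 (adjusted p = 0.103). In each of these genes the 3 groups did not overlap.

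The calls with SR3335 rest on few arrays. With any of the 4 arrays left out limma made 0 calls among the 34 genes, with 6 to 8 at an unadjusted p under 0.05. With only these 4 arrays in the fit, or with no detection filter, it also made 0, with 12 and 10 at an unadjusted p under 0.05. Nfkbia, the classical feedback gene, read 13.13 and 13.21 with vehicle, 13.21 and 13.21 with SR3335, and 13.14 and 13.07 with SR1078. Its differences were 0.04 ± 0.08 and -0.06 ± 0.08, with 95% intervals of -0.13 to 0.21 and -0.23 to 0.11.

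**Figure D4:**
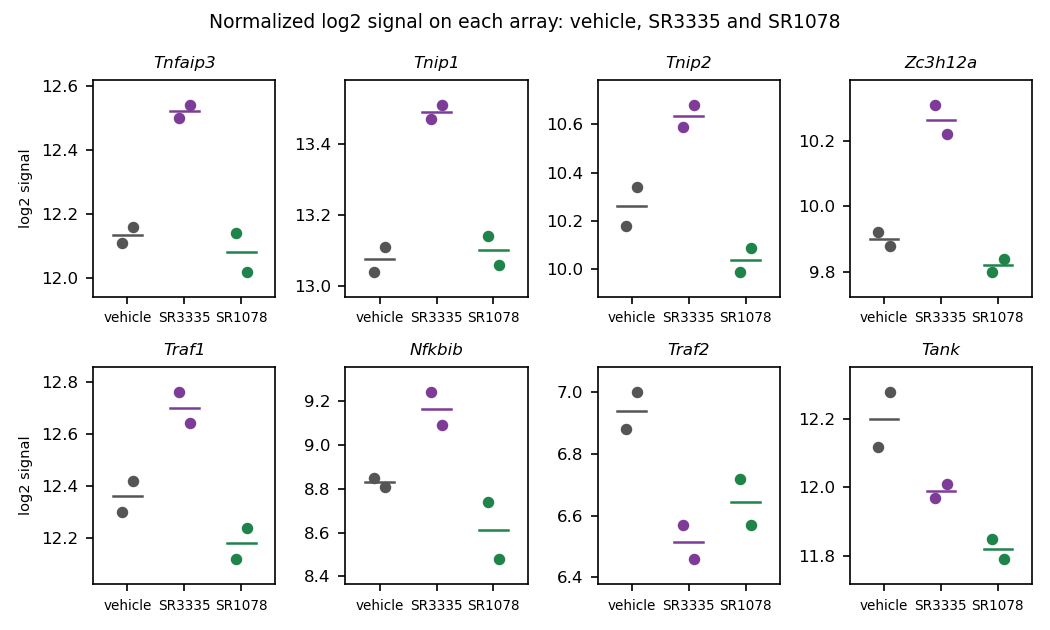
Normalized log2 signal (vertical axis, scaled to each gene) on each of the 2 arrays with vehicle, SR3335 and SR1078 for 8 genes; points are arrays and lines are group means. The SR3335 arrays are highest for Tnfaip3, Tnip1, Tnip2, Zc3h12a, Traf1 and Nfkbib, and the vehicle arrays are highest for Traf2 and Tank.

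Nfkbiz read 11.96 and 11.81 with vehicle, 11.54 and 11.72 with SR3335, and 10.74 and 10.88 with SR1078. It fell with SR1078 2.1-fold (-1.07 ± 0.13, adjusted p = 0.0101), and with SR3335 it read -0.26 ± 0.13 (adjusted p = 0.333). The SR1078 arrays lay below the other 4. With any 1 of the 4 arrays left out the difference was -1.0 to -1.14 and did not pass, with adjusted p from 0.0576 to 0.13. Tank had the next largest difference with SR1078, -0.38 ± 0.09 (adjusted p = 0.0708), and read 12.12 and 12.28 with vehicle, 11.97 and 12.01 with SR3335, and 11.85 and 11.79 with SR1078.

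The Nfkbiz signal was also looked up in the table of processed values, because the 2 deposited tables differ for it. Quantile normalization of the deposited signals within a set gave the authors' processed values to within 0.011 log2 for all but 30 of 25697 probes. Those 30 departed by 0.061 to 2.316 log2, all in the set with vehicle, SR3335 and SR1078, and 0 departed in the set with M0, LPS and IL-4. The Nfkbiz probe was the 1 probe of these genes among them, with a departure of up to 0.407. Its deposited signals were 3760.2 and 3736.8 with vehicle, 3041.4 and 3087.7 with SR3335, and 1940.8 and 1931.6 with SR1078. The authors' processed log2 values were 11.68 and 11.50, 11.31 and 11.31, and 10.73 and 10.70 in the same order. The processed values were the lower ones on all 6 arrays, and both tables had the order vehicle, SR3335, SR1078 from high to low.

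From the processed values the SR1078 difference was -0.88 ± 0.10 (adjusted p = 0.000221), against -1.07 ± 0.13 from the deposited signals. The SR3335 difference was -0.28 ± 0.10 (adjusted p = 0.0949) against -0.26 ± 0.13. The 2 deposited Nfkbiz signals of a group differed by 0.63%, 1.51% and 0.48% with vehicle, SR3335 and SR1078, where the median over the probes of these genes was 9.88%, 7.34% and 11.1%. In M0, LPS and IL-4 the same probe differed by 17.87%, 21.79% and 4.27%. Its deposited signals of the second set carry up to 8 significant digits, where the probes that did not depart carry at most 7. The origin of the departure was not tested.

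**Figure D5:**
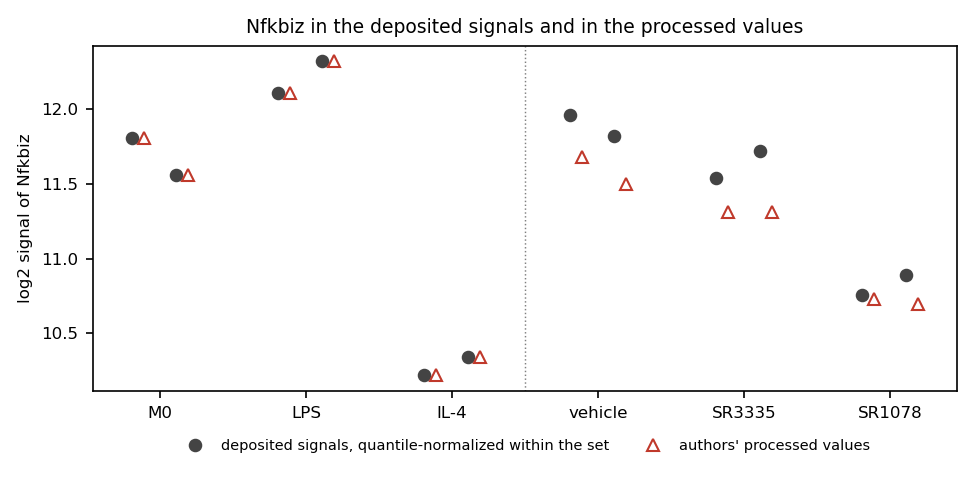
Log2 signal of Nfkbiz on each array from the deposited signals, quantile-normalized within each set (filled circles), and from the authors' processed values (open triangles). Both tables coincide for M0, LPS and IL-4, and for vehicle, SR3335 and SR1078 the processed values lie lower.

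SR3335 and SR1078 were compared directly at the concentrations given above, which differ, so any difference may also be one of dose. Higher with SR3335 were 7 of 34 genes, or 20.6%, where 4.59% of all genes passed, 2.11% higher and 2.49% lower. These were Nfkbiz (0.81 ± 0.13), Tnip2 (0.59 ± 0.13), Nfkbib (0.55 ± 0.10), Traf1 (0.52 ± 0.09), Tnfaip3 (0.44 ± 0.08), Zc3h12a (0.44 ± 0.09) and Tnip1 (0.39 ± 0.09), with adjusted p from 0.0109 to 0.04. By role they were 4 of 8 genes grouped as inhibitors, 2 of 5 IkB proteins and 1 of 6 TRAF and cIAP proteins. From the processed values the Nfkbiz difference was 0.60 ± 0.10. The median over the 34 genes was 0.19, against -0.01 over all genes. With SR1078 replicate 1 left out 1 gene passed, Nfkbib, and with any of the other 3 arrays left out limma called 0, with 11 to 14 at an unadjusted p under 0.05.

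Among the measured genes of other NF-kB signalling, Malt1 rose with SR3335 by 0.94 ± 0.18 (adjusted p = 0.0241), and limma called 0 of 38 with SR1078, with 7 at an unadjusted p under 0.05. The share of the 38 that passed with SR3335 was 2.6%. Of all genes 4.63% passed with SR3335 and 1.4% with SR1078. Against SR1078, SR3335 had higher Tax1bp1, an A20 adaptor (0.40 ± 0.07), higher Peli1 (0.32 ± 0.07) and lower Otud7b (-0.66 ± 0.15). That is 7.9% of the 38, where 4.59% of all genes passed. Of the 43 known target genes, 10 rose with SR3335, among them the neutrophil chemokine Cxcl1 (1.11 ± 0.16), the nitric oxide synthase Nos2 (1.07 ± 0.18) and Saa3 (0.92 ± 0.08). These 10 are 23.3% of the 43, against the 4.63% of all genes, and the limit on this list given above applies here too. With SR1078 limma called 0 of the 43, with 9 at an unadjusted p under 0.05. SR3335 against SR1078 gave 11 higher, with Nos2 at 1.14 ± 0.18, Cd83 at 0.73 ± 0.08 and the costimulatory receptor Cd40 at 0.68 ± 0.08, and 1 lower, the matrix protease Mmp9 at -0.48 ± 0.10. That is 27.9% of the 43, against the 4.59% of all genes. Comparisons that share vehicle, SR3335 or SR1078 arrays are not independent of each other. Marker sums of other cells were also read in this set. B cell markers summed to 484 to 549 with vehicle, 522 to 523 with SR3335 and 850 to 862 with SR1078. Neutrophil markers summed to 1815 to 1893, 2552 to 2639 and 2184 to 2341 in the same order. Markers of T and NK cells summed to 7290 to 7669, 6634 to 6775 and 6630 to 7033 in the same order. Stellate cell and fibroblast markers summed to 3749 to 3838, 4590 to 5435 and 4268 to 4636, hepatocyte markers to 7128 to 7734, 7848 to 10888 and 8348 to 9420, dendritic cell and monocyte markers to 1297 to 1359, 1605 to 1685 and 1225 to 1298, and sinusoidal endothelium markers to 18149 to 18594, 17952 to 18638 and 18898 to 19422. Some of these sums overlapped between groups. Against vehicle limma called 0 neutrophil, 0 hepatocyte and 0 stellate cell markers, with at most 2 of a list at an unadjusted p under 0.05. It called 1 B cell marker with SR1078, and with SR3335 1 marker each of T and NK cells, of dendritic cells and monocytes, and of endothelium. With SR1078, 1 endothelium marker passed higher and 1 lower. The part of these cells in the results was not tested.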

How the data were processed

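RNA of mouse Kupffer cells was hybridised to 12 Illumina bead arrays, and the labels' titles give 6 groups of 2. The deposited table of bead intensity holds 25697 probes without normalization between arrays and was made by the authors with GenomeStudio 2011.1, per the submitters' processing notes. Per the file headers, the column after each intensity is its detection p-value. The authors also deposited processed log2 values, which quantile normalization within each set of 6 arrays gave back except for 30 probes. No genome build is given in the sources used here.

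Intensities were background-corrected by normexp (offset 16), for which limma's nec derived the negative control distribution from the detection p-values, then quantile-normalized across the 12 arrays and log2-transformed, all with limma 3.58.1 in R 4.3.3. The filter on detection (p under 0.05, 2 arrays or more) passed 13678 probes. Where a gene had several of these (2470 genes), its brightest probe on average was taken, so that 10255 genes were tested. A linear model with 1 mean per group over all 12 arrays (6 residual degrees of freedom) gave limma's moderated tests, adjusted by Benjamini-Hochberg across the genes, with a threshold of 0.05. The fit was tested on simulated data first. Tables and figures were made with pandas 2.3.3 and matplotlib 3.10.9 in Python 3.11.15.

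Gene symbols were those of RefSeq for the gene identifier annotated to each probe, or else the platform's symbol. In this way 23978 probes name 1 gene and 1719 name none. Promoter sequences came from RefSeq (GRCm38.p6) and were matched by symbol for 34 of the 40 listed genes. Values on every array are given for genes that passed in at least 1 comparison with a log2 difference of 0.5 or more. From the lists of other signalling and known target genes, passing genes among the 3 largest rises and the 3 largest falls were named. The members, lists and tests were chosen with earlier results of these data known.

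Same-numbered replicates shared little: their deviations from the group means correlated at -0.017 to 0.097 within a set, so no pairing was used. Alternatives were no background correction, an offset of 50, median centring, the authors' processed values, each array set on its own, no or a stricter detection filter, every kept probe, a variance trend, array weights, only the groups compared, the replicate number as a block, and each array left out. Leaving out the 30 departing probes was added after the data were seen.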

Additional observations from a re-analysis of the deposited data

How the results depend on the processing

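Counts of genes passing among the 34 moved under several alternatives. After LPS, 16 genes passed. With an offset of 50 it was 18, Nfkb2 and Tbk1 being added. With no background correction, the authors' processed values, the stricter filter or a variance trend it was 19, with Map3k14 as well. It was 12 with median centring, and 11 with each set on its own or with only the groups compared. After IL-4, 16 passed, 4 with each set on its own, 7 with array weights, 3 with only the groups compared and 6 to 16 with 1 array left out. LPS against IL-4 gave 23 calls, 13 with only the groups compared and 20 to 25 with 1 array left out. SR3335 against vehicle gave 3, but 1 (Tnip1) with median centring, 5 with the authors' processed values or the stricter filter (detection p under 0.01 on 6 arrays), 7 with array weights, 0 with no detection filter or with only the groups compared (10 and 12 at an unadjusted p under 0.05), and 0 to 0 with 1 array left out. Traf2 passed here under 2 of these, the stricter filter and array weights. Zc3h12a and Traf1, not called in the main setting, passed under both. They also did with no background correction, the authors' processed values or a variance trend. Zc3h12a passed as well with an offset of 50 and with each set on its own. Nfkbib passed with the authors' processed values and array weights, and Tnip2 with array weights. SR1078 against vehicle gave 1, but 2 (Nfkbiz and Tank) with no background correction, an offset of 50, the authors' processed values, the stricter filter, a variance trend or array weights, 2 with every kept probe, 0 without the departing probes, Nfkbiz among them (7 at an unadjusted p under 0.05), and 0 to 0 with 1 array left out. SR3335 against SR1078 gave 7, but 4 with median centring or no detection filter, 12 with array weights, 2 with only the groups compared and 0 to 1 with 1 array left out. Counts over all genes moved as well. After LPS 1381 rose and 1729 fell in the main setting, and 866 and 1052 with each set on its own. After IL-4 it was 868 and 1139, then 307 and 386. With SR3335 against vehicle 214 rose and 261 fell in the main setting, and 495 and 453 with the authors' processed values. Some of these fits held fewer arrays or probes, and the cause of the moved counts was not tested. A group left with 1 array takes its spread from the other groups in the fit. With every kept probe, the 2 genes passing with SR1078 against vehicle were Nfkbiz, lower, and Birc2, higher on a probe other than the one used.

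With the replicate number as a block, a number that samples share without being paired, limma called 0 genes for SR3335 and 0 for SR1078 against vehicle (11 and 8 at an unadjusted p under 0.05), 4 for SR3335 against SR1078, 16 after LPS, 14 after IL-4 and 23 for LPS against IL-4.

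Where the probe used had passed, some other probes had the opposite sign, and none of these passed. Birc2 did not pass with SR1078 on the probe used (-0.14 ± 0.08), and its second probe passed with the opposite sign (0.54 ± 0.09). Nfkbie after IL-4 read 0.19 ± 0.31, Tnip2 after LPS -0.06 ± 0.26 and Zc3h12a with LPS against IL-4 -0.01 ± 0.27. After IL-4, 2 Tnip1 probes read 0.06 ± 0.15, undetected in M0 and after IL-4, and 0.03 ± 0.16. Another Tnip1 probe fell like the one used (-0.41 ± 0.10). Median centring moved the median LPS difference of all genes from -0.027 to -0.132, a shift of -0.105. With it 10 of the 34 genes rose and 2 fell (Tnfaip2 and Ticam1), and relative to the median of all genes the 16 called differences kept their sign and moved by at most 0.10. Of all calls, the share higher with the main setting and with median centring was 44.4% and 26.5% for LPS, 43.2% and 32.2% for IL-4, 49.4% and 37.6% for LPS against IL-4, and 45.9% and 33.3% for SR3335 against SR1078. For SR3335 against vehicle it was 45.1% and 38.8%. For SR1078 against vehicle it moved the other way, from 75.0% to 83.1% with median centring, and was 64.0% with the authors' values.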
